A study of Drosophila melanogaster with 10 samples.

Results

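Neurons share a set of gene products wherever they lie in the brain: RNA-binding proteins of the Elav family, the machinery that fuses and recycles synaptic vesicles, the scaffold of the active zone, and adhesion proteins that join the membranes of a synapse. A list of 34 such pan-neuronal and synaptic genes of Drosophila was defined by gene symbol. Its rule uses no measured value, although earlier results of these data were known when it was drawn up. All 34 symbols matched a row of the count table, which holds 17676 genes. The question was how far the sorted cells of 3 genotypes differ in transcripts of neuronal differentiation.

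The cells were type II neuroblasts (NB II) and the cells they give rise to, sorted by FACS from dissociated brains of larvae that the labels give as 96 h old. The labels describe the sorted cells as GFP-positive NB II with their progeny, whereas the methods describe a gate for NB II set by side scatter, forward scatter and GFP intensity, and the share of progeny in a library is not given. All genotypes carried wor-GAL4, ase-GAL80 and UAS-mCD8::GFP, so that GFP and the knockdown constructs were driven in NB II lineages. The 3 libraries labelled brat-KD Spt5-KD came from larvae with UAS-brat-IR and UAS-Spt5-IR, the 4 brat-KD libraries from larvae with UAS-brat-IR, and the 3 control libraries from larvae with neither knockdown. Brat is a translational repressor that is inherited by the daughter cell meant to differentiate, and its loss turns NB II lineages into tumors. Spt5 is an elongation factor of RNA polymerase II. No source used here states whether the libraries of a genotype came from separate sorts, so p-values measure the spread between these libraries, which may be technical.

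An NB II divides into a new NB II and an intermediate neural progenitor (INP), and each INP produces several ganglion mother cells, whose daughters become neurons or glia. In larvae, neurons born in these lineages are young: they switch on elav and fne early, and build synapses later. Synaptic vesicles fuse when a vesicle SNARE (nSyb) binds the target membrane SNAREs Snap25 and Syx1A, under the control of calcium sensors (synaptotagmins), clamps and priming factors, and the membrane is taken back by endocytosis.

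Libraries held 2158058 to 4780947 counts in cells labelled brat-KD Spt5-KD, 5432145 to 7409954 in brat-KD cells and 4968226 to 9753111 in controls. Values are given as CPM, counts divided by the library total after TMM scaling over all 10 libraries and multiplied by a fixed factor, and 1 count was worth 0.102 to 0.483 CPM. Replicate 1 labelled brat-KD Spt5-KD and control replicate 1 stood apart from the other libraries of their genotype: their rank correlations with them over all genes were 0.843 to 0.859 and 0.901 to 0.903, against 0.929 and 0.959 between the other 2 libraries of each genotype. The targeted gene brat had 279, 109 and 226 CPM in libraries labelled brat-KD Spt5-KD and 132 to 217 CPM in brat-KD libraries, against 891, 944 and 994 CPM in controls. Spt5 had 197, 118 and 560 CPM in libraries labelled brat-KD Spt5-KD and 129 to 168 CPM in brat-KD libraries, against 180 to 230 CPM in controls, and its transcript was not called lower where it was targeted (edgeR adjusted p = 0.63 against controls and 0.17 against brat-KD libraries, both fold changes positive). Those libraries are therefore named by their label throughout.

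**Figure D1:**
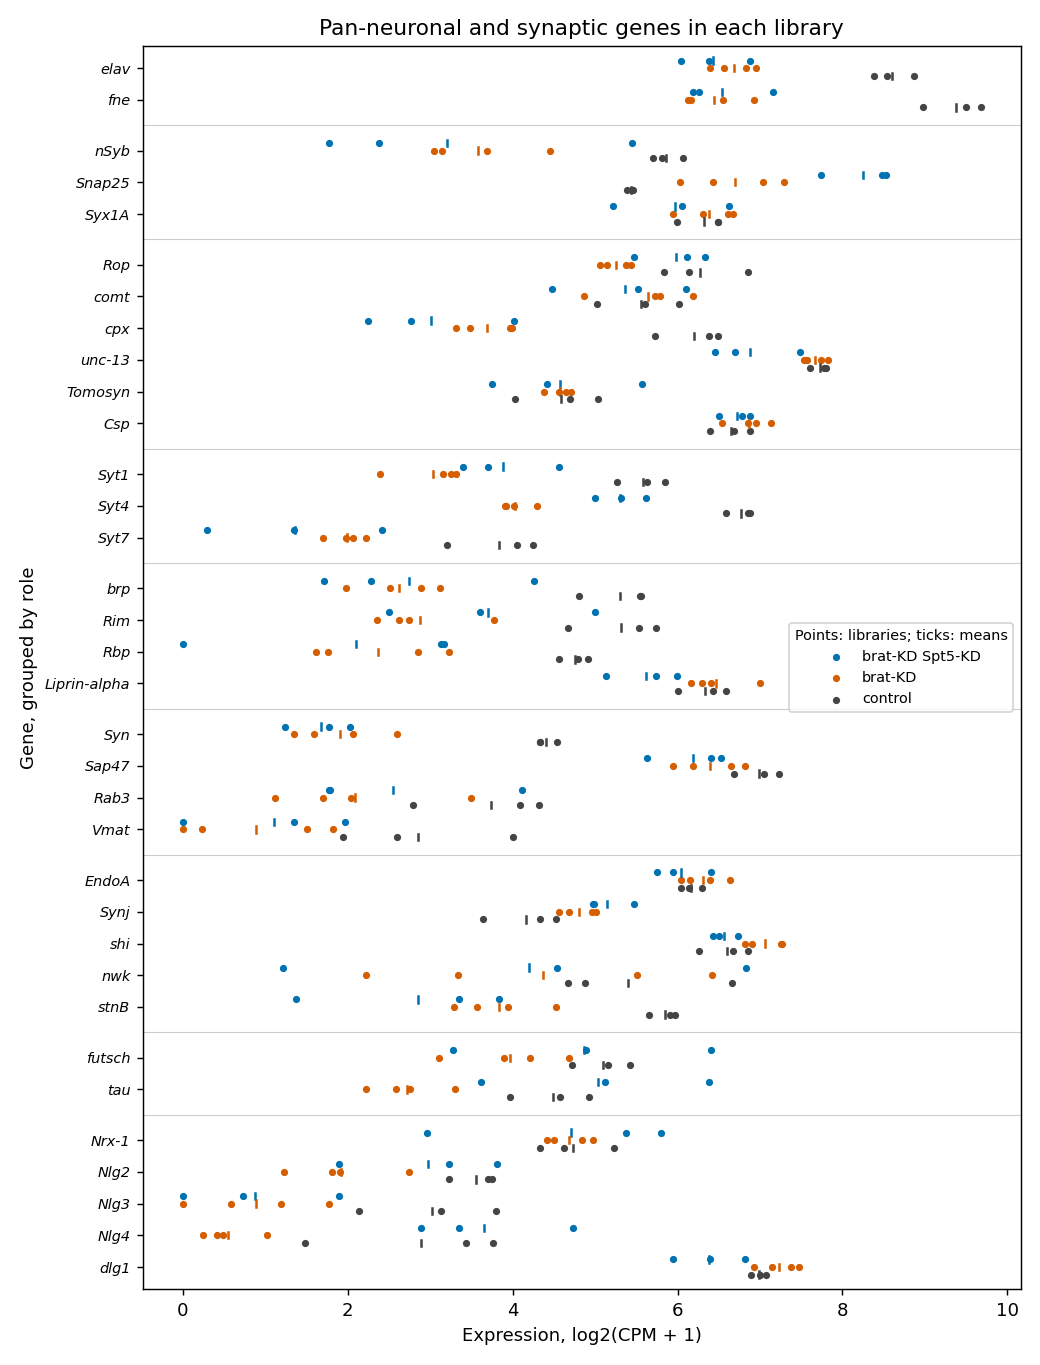
Expression of the 34 pan-neuronal and synaptic genes in each of the 10 libraries, as log2(CPM + 1) on the horizontal axis, with genes in rows grouped by role. Each point is a library, coloured by genotype, and each tick is the mean of the log2 values of a genotype. In both knockdown genotypes elav, fne, cpx and the 3 synaptotagmins lie left of the controls, Snap25 lies right of them, and genes such as Csp and EndoA overlap.

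Brat depletion was compared with the control first. Of the 34 genes, 17 were lower and 1, Snap25, was higher in brat-KD than in control libraries (edgeR quasi-likelihood test, Benjamini-Hochberg adjusted p under 0.05 over all genes tested), which is 52.9% of the list, against 28.1% of all 8785 genes tested. Over all genes tested, 14.3% were called lower and 13.8% higher. The median log2 fold change of the list was -1.81, against -0.02 over all genes tested. Libraries of the genotypes did not overlap for 19 of the 34 genes in the lower and 2 in the higher direction, against 38.8% of all genes tested (17.5% lower and 21.3% higher). The 17 lower genes had mean levels of 6.09% to 46.8% of the control mean. In sorted populations of this kind, fewer cells of a type and less RNA per cell cannot be told apart. Summed over the 34 genes, expression was 1446 to 1743 CPM in brat-KD libraries, against 2676 to 2941 CPM in controls. Within these sums, elav and fne held 152 to 234 CPM in brat-KD libraries, against 967 to 1150 CPM in controls. Sums of the SNAREs, the active zone scaffold, the endocytosis genes and the adhesion and scaffold genes overlapped the controls. Sums of the remaining roles lay below all controls.

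The RNA-binding proteins elav and fne, paralogs that control splicing and polyadenylation in neurons, were both lower. elav had 113, 94.0, 83.4 and 123 CPM in brat-KD libraries, against 465, 372 and 333 CPM in controls. It was 3.92-fold lower (log2 fold change -1.97, SE 0.18, edgeR adjusted p = 3.6e-05), with no overlap between libraries. fne had 120.5, 92.4, 68.9 and 70.8 CPM in brat-KD libraries, against 501, 722 and 818 CPM in controls, and was 8.01-fold lower (log2 fold change -3.00, SE 0.23, edgeR adjusted p = 1.5e-05). Reads of elav (X, 509235 to 523226, minus strand) cannot be told apart from those of arg, a gene whose annotated span overlaps it and which held 100% to 112% as many counts in every library. fne (X, 12917477 to 12950417, plus strand) shares its span only with a transposable element. Rbp9, an Elav family gene outside the list, had 7.24 ± 2.40 CPM in brat-KD and 9.88 ± 1.92 CPM in control libraries (SD). It was not called (log2 fold change -0.50, SE 0.49, edgeR adjusted p = 0.5).

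The SNARE proteins did not move together. nSyb, the vesicle SNARE of neurons, had 11.9, 7.24, 7.87 and 20.9 CPM in brat-KD libraries, against 66.3, 55.02 and 50.9 CPM in controls (log2 fold change -2.31, SE 0.36, edgeR adjusted p = 0.00094). Snap25, a target membrane SNARE, went the other way, with 155, 130, 64.3 and 85.2 CPM in brat-KD libraries, against 40.9, 42.8 and 43.0 CPM in controls. It was 2.47-fold higher (log2 fold change 1.31, SE 0.28, edgeR adjusted p = 0.0052), and each brat-KD library lay above each control library. Syx1A, the partner of Snap25 on the target membrane, had 97.0, 60.5, 101 and 78.5 CPM in brat-KD libraries, against 88.9, 62.8 and 88.9 CPM in controls, and was not called. Syx1A lies inside the annotated span of eIF4EHP, which held 161% to 334% as many counts, so reads of these genes cannot be told apart.

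All 3 synaptotagmins of the list were lower. Among synaptotagmins outside the list, Syt14 (log2 fold change -2.02, SE 0.72, edgeR adjusted p = 0.057) and Sytbeta (-2.77, SE 1.05, edgeR adjusted p = 0.072) were not called. Syt12 and Sytalpha had too few counts to be tested. Syt1, the calcium sensor of fast transmitter release, had 8.96, 7.93, 4.27 and 8.53 CPM in brat-KD libraries, against 37.5, 48.6 and 56.8 CPM in controls (log2 fold change -2.74, SE 0.33, edgeR adjusted p = 0.00016). Syt4, which acts in signals sent back from the postsynaptic cell, had 15.2, 14.1, 14.0 and 18.6 CPM in brat-KD libraries, against 116, 114.8 and 95.2 CPM in controls. It was 7.29-fold lower (log2 fold change -2.87, SE 0.19, edgeR adjusted p = 1.4e-05) and spread little within either genotype. Syt7, a relative of Syt1 with higher affinity for calcium in mammals, had 2.24 to 3.66 CPM in brat-KD libraries, against 8.22 to 18.0 CPM in controls (log2 fold change -2.26, edgeR adjusted p = 0.0092). The call of Syt7 was lost without control replicate 2 (log2 fold change -2.12) and without control replicate 3 (-2.03).

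Of the 6 regulators and chaperones of SNAREs, 2 were lower. cpx, the complexin that clamps assembled SNAREs until calcium arrives, had 14.6, 10.2, 8.93 and 14.9 CPM in brat-KD libraries, against 52.2, 82.4 and 88.7 CPM in controls (log2 fold change -2.66, SE 0.28, edgeR adjusted p = 6.7e-05). Rop, the Sec1/Munc18 protein that binds Syx1A, had 40.6, 32.4, 42.3 and 34.3 CPM in brat-KD libraries, against 114, 69.6 and 56.0 CPM in controls (log2 fold change -1.15, SE 0.25, edgeR adjusted p = 0.0064). The remaining 4 regulators were not called: comt, the NSF protein that takes spent SNARE complexes apart, unc-13, which primes vesicles, Tomosyn, an inhibitor of SNARE assembly, and Csp, a chaperone that works with Hsc70 proteins. unc-13 had 185 to 226 CPM in brat-KD libraries, against 193 to 221 CPM in controls, and genes nested within it held 19.1% and 16.6% as many counts as unc-13 itself in these genotypes. Csp had 92.1 to 139 CPM in brat-KD libraries, against 83.2 to 117 CPM in controls.

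At the active zone, where vesicles dock and fuse, 3 of 4 scaffold genes were lower. brp, the main component of the dense projection, had 7.68, 2.93, 6.40 and 4.69 CPM in brat-KD libraries, against 27.0, 45.7 and 46.1 CPM in controls (log2 fold change -2.91, SE 0.39, edgeR adjusted p = 0.00035). Rim, which links vesicles to calcium channels, had 4.13 to 12.7 CPM in brat-KD libraries, against 24.5 to 52.4 CPM in controls (log2 fold change -2.60, edgeR adjusted p = 0.0015). Rbp, the RIM-binding protein, had 2.07 to 8.40 CPM in brat-KD libraries, against 22.6 to 29.1 CPM in controls (log2 fold change -2.49, edgeR adjusted p = 0.0048). Libraries of these 3 genes did not overlap between genotypes. Liprin-alpha, a scaffold needed when active zones form, had 70.7 to 127 CPM in brat-KD libraries, against 63.0 to 95.2 CPM in controls, and was not called.

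Among proteins of the vesicle itself, Syn, the synapsin that tethers reserve vesicles, was lower, with 2.01, 1.55, 5.07 and 3.18 CPM in brat-KD libraries, against 22.1, 19.2 and 19.1 CPM in controls (log2 fold change -2.80, SE 0.51, edgeR adjusted p = 0.0023). Timp, a gene within Syn on the opposite strand, held 42.9% as many counts as Syn in brat-KD and 3.5% in control libraries. With these counts subtracted, the log2 fold change of Syn was -3.56 (edgeR adjusted p = 0.0014). The vesicle genes Sap47, Rab3 (a GTPase of vesicle traffic) and Vmat (the vesicular monoamine transporter) were not called. Vmat had 0 to 2.53 CPM in brat-KD libraries, against 2.85 CPM or more in each control, without overlap, and a log2 fold change of -2.77 whose SE was 1.17 (edgeR adjusted p = 0.1).

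Of 5 genes of endocytosis, 1 was called. stnB, one product of the stoned locus and an adaptor for vesicle retrieval, had 14.4, 8.80, 22.0 and 10.9 CPM in brat-KD libraries, against 58.9, 61.6 and 49.4 CPM in controls (log2 fold change -2.06, SE 0.32, edgeR adjusted p = 0.00087). The table gives stnA and stnB the same count in all 10 libraries, so the value belongs to the shared transcript and not to stnB alone. EndoA (endophilin), Synj (synaptojanin), shi (dynamin) and nwk (an F-BAR protein of the nerve terminal) were not called. shi, which also cuts endocytic vesicles in cells other than neurons, had 112 to 153 CPM in brat-KD libraries, against 75.6 to 114.9 CPM in controls. Synj had 22.6 to 31.3 CPM in brat-KD libraries, against 11.4 to 22.0 CPM in controls, without overlap (log2 fold change 0.58, edgeR adjusted p = 0.2). nwk spread too widely to read, with 3.66, 9.14, 44.5 and 84.2 CPM in brat-KD libraries, against 99.8, 28.5 and 24.6 CPM in controls.

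Both microtubule-binding proteins of axons were lower. futsch, the MAP1B of flies, had 13.9, 7.59, 17.5 and 24.6 CPM in brat-KD libraries, against 25.4, 34.6 and 41.9 CPM in controls (log2 fold change -1.14, SE 0.39, edgeR adjusted p = 0.047). tau had 3.66, 5.002, 5.73 and 8.87 CPM in brat-KD libraries, against 14.6, 29.4 and 22.8 CPM in controls (log2 fold change -1.98, SE 0.44, edgeR adjusted p = 0.0072). Of the adhesion and scaffold genes, the neuroligins Nlg2 (log2 fold change -1.89, SE 0.63, edgeR adjusted p = 0.043) and Nlg4 were lower. Nlg4 had 0.183, 1.04, 0.400 and 0.335 CPM in brat-KD libraries, against 1.79, 9.76 and 12.5 CPM in controls (log2 fold change -4.03, SE 0.96, edgeR adjusted p = 0.0098). Its relative Nlg3 was not called, with 0 to 2.42 CPM in brat-KD libraries, against 3.39 to 12.9 CPM in controls. Nrx-1, the neurexin that binds neuroligins across the cleft, and dlg1, a scaffold of synapses and of cell polarity, were not called, with 20.4 to 30.4 and 120.5 to 176 CPM in brat-KD libraries, against 19.1 to 36.4 and 118 to 134 CPM in controls.

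Calls of several low genes were lost when 1 library was left out, while their fold changes kept their sign. The call of futsch was lost without brat-KD replicate 1, 2 or 3 or control replicate 2 or 3, at log2 fold changes between -1.19 and -0.91. Nlg2 lost its call without brat-KD replicate 2, 3 or 4 or control replicate 2 or 3, at -2.03 to -1.64. tau lost it without control replicate 2 (-1.69), and Nlg4 without control replicate 2 (-3.82) or 3 (-3.57). When all 3 genotypes shared 1 fit, nSyb (edgeR adjusted p = 0.08), Rbp (0.13), Syt7 (0.11), tau (0.052), futsch (0.29) and Nlg2 (0.14) lost their calls as well, at nearly the same fold changes. futsch was also not called with DESeq2 size factors or total counts in place of TMM, and Nlg2 with total counts or without a filter on low counts. The 16 genes that were not called differed in precision. For 12 of them (Syx1A, comt, unc-13, Tomosyn, Csp, Liprin-alpha, Sap47, EndoA, Synj, shi, Nrx-1 and dlg1), the SE was 0.14 to 0.32 and the log2 fold change between -0.62 and 0.58. The 17 lower genes ranged from -4.03 to -1.14. A gene with a small SE is called once its fold change is far from 0, so the call itself helps to set these ranges apart. Sap47, at -0.62 (SE 0.22, edgeR adjusted p = 0.057), came close to being called. For Rab3, Vmat, nwk and Nlg3, the SE was 0.75 to 1.17, which is too wide to place them near 0 or among the lower genes.

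**Figure D2:**
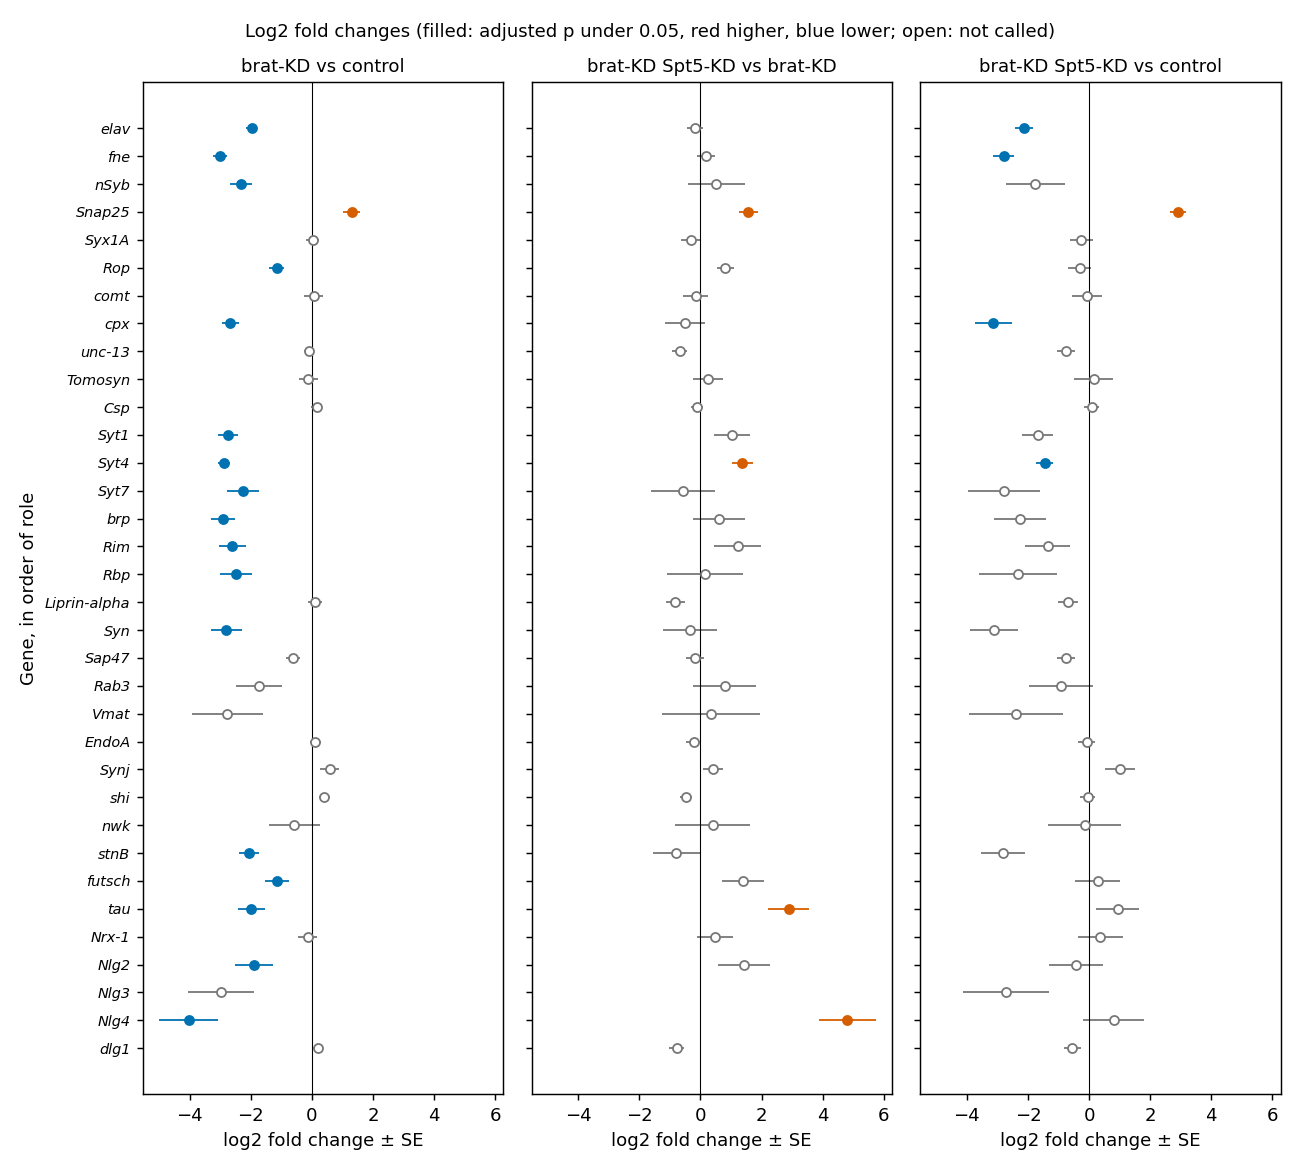
Log2 fold changes (horizontal axes, bars ± SE from edgeR) of the 34 genes in 3 comparisons, in order of role. Filled points passed an adjusted p of 0.05, orange-red for higher and blue for lower, and open points did not; Nlg3 was not tested in the middle comparison. Most filled points are in the left panel, where 17 lie left of 0 and Snap25 lies right of it.

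The same fits were read for neuronal genes outside the 34. Of 28 other synaptic genes, 25 were tested and 12 passed the test, each lower in brat-KD libraries (48%). Of all genes tested, 14.3% were lower and 28.1% were called in either direction. The median log2 fold change of the 25 was -1.21, against -0.02 over all genes tested. One of the 12 is stnA, whose counts equal those of stnB and are no measurement separate from the 34. The largest changes were those of Ank2, a giant ankyrin of axons and terminals (91.7 ± 32.1 CPM in brat-KD and 496 ± 19.0 CPM in control libraries, SD, n = 4 and 3), Cadps, which primes dense-core vesicles (30.3 ± 7.46 and 155 ± 20.5 CPM in the same order), and Rab3-GEF, the exchange factor of Rab3 (3.55 ± 2.47 and 15.9 ± 6.34 CPM). Their log2 fold changes were -2.48, -2.40 and -2.20 (edgeR adjusted p = 4.3e-05, 3.6e-05 and 0.028). Of 5 genes of transmitter identity, 4 were lower, led by VGAT, the vesicular GABA transporter (log2 fold change -3.64, SE 0.58), and by VAChT and ChAT, which load and make acetylcholine (-2.48 and -2.39). All 4 fate factors of young neurons were lower. pros, which ends self-renewal in the ganglion mother cell, had 557, 518, 605 and 561 CPM in brat-KD libraries, against 1745, 2539 and 2315 CPM in controls (log2 fold change -2.02, SE 0.17, edgeR adjusted p = 2.1e-05). The zinc finger factor nerfin-1, which keeps neurons differentiated, and the neuronal factor onecut had log2 fold changes of -2.23 and -1.77 (edgeR adjusted p = 6.5e-05 and 9.2e-05).

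Markers of the stem and progenitor cells moved in these libraries as well. All 6 genes listed as markers of NB II (dpn, wor, klu, mira, insc and pnt) were higher in brat-KD libraries, with sums of 3424 to 3784 CPM, against 1636 to 1790 CPM in controls. They are not all specific to NB II: the authors place Dpn also in type I neuroblasts and mature INPs, and the wor-GAL4 driver in both neuroblast types. mira alone had 1859 to 2363 CPM in brat-KD libraries, against 1053 to 1206 CPM in controls. All 5 INP markers (ase, erm, D, ham and opa) were lower, with sums of 68.6 to 144 CPM, against 384 to 493 CPM in controls. No gene of either list was at 0 throughout a genotype, and the part of cell makeup in the fall of neuronal transcripts was not tested.

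**Figure D3:**
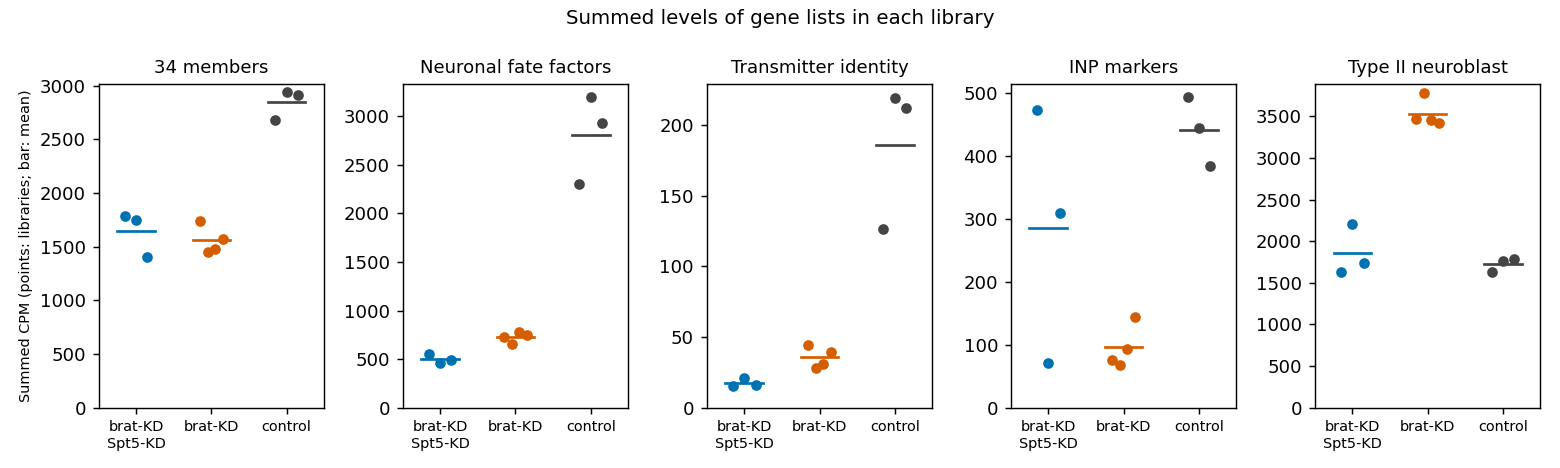
Summed CPM (vertical axes, each from 0) of 5 gene lists in each library: the 34 pan-neuronal and synaptic genes, 4 neuronal fate factors, 5 genes of transmitter identity, 5 INP markers and 6 NB II markers. Points are libraries and bars are genotype means. For the first 3 lists both knockdown genotypes lie below all controls, whereas NB II markers are high in brat-KD libraries and INP markers spread from 71.8 to 473 CPM in libraries labelled brat-KD Spt5-KD.

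The libraries labelled brat-KD Spt5-KD were then compared with brat-KD libraries. Of 33 genes tested, 4 passed the test (12.1%, against 11.6% of all 8750 genes tested), and all 4 were higher: Snap25, Syt4, tau and Nlg4. Over all genes tested, 5.91% were called higher and 5.71% lower. The median log2 fold change of the list was 0.24, against -0.05 over all genes. edgeR called no member lower. At an unadjusted p under 0.05, 4 members were lower and 5 higher, and DESeq2 called 1 lower and 5 higher. The shares of all genes given above are for the adjusted edgeR p and do not apply to these counts. Summed expression of the 34 genes overlapped, at 1401 to 1783 CPM in libraries labelled brat-KD Spt5-KD and 1446 to 1743 CPM in brat-KD libraries. The count of 4 moved with single libraries: it was 8 without replicate 1 labelled brat-KD Spt5-KD, 1 and 2 without replicates 2 and 3 of that genotype, and 1, 2, 1 and 0 without brat-KD replicates 1, 2, 3 and 4.

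Snap25 had 356, 368 and 212 CPM in libraries labelled brat-KD Spt5-KD, against 155, 130, 64.3 and 85.2 CPM in brat-KD libraries. It was 2.97-fold higher (log2 fold change 1.57, SE 0.31, edgeR adjusted p = 0.016), and the genotypes did not overlap. The call was lost without replicate 2 labelled brat-KD Spt5-KD (log2 fold change 1.44) and without brat-KD replicate 4 (1.51). The gene spans 225026 bases (3L, 24074180 to 24299205, plus strand) and holds 12 nested annotations (genes or transposable elements), which had no more than 0.326% as many counts as Snap25 in any genotype. Syt4 (3R, 7266065 to 7270809, plus strand), which overlaps no other annotation, had 38.7, 47.9 and 30.9 CPM in libraries labelled brat-KD Spt5-KD, against 14.0 to 18.6 CPM in brat-KD libraries (log2 fold change 1.38, SE 0.35, edgeR adjusted p = 0.037). Its call was lost without any 1 of the brat-KD libraries (1.33 to 1.52), and without replicate 2 or 3 labelled brat-KD Spt5-KD (1.21 or above).

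Nlg4 (3R, 20204809 to 20245473, plus strand) had 25.6, 6.41 and 9.18 CPM in libraries labelled brat-KD Spt5-KD, against 0.183 to 1.04 CPM in brat-KD libraries. It was 27.8-fold higher (log2 fold change 4.80, SE 0.93, edgeR adjusted p = 0.014), from few counts in brat-KD cells, and was not called without brat-KD replicate 1 (4.57), 3 (4.75) or 4 (4.70). Other neuroligins did not pass: Nlg2 had 2.71, 8.39 and 13.04 CPM in libraries labelled brat-KD Spt5-KD, against 1.33 to 5.67 CPM in brat-KD libraries, and Nlg3 had too few counts to be tested.

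For tau, its own reads cannot be told apart from those of a gene inside it. tau (3R, 27639886 to 27656996, minus strand) had 11.3, 82.2 and 33.8 CPM in libraries labelled brat-KD Spt5-KD, against 3.66 to 8.87 CPM in brat-KD libraries (log2 fold change 2.88, SE 0.66, edgeR adjusted p = 0.025). RpS10a, a ribosomal protein gene on the opposite strand within tau (3R, 27652760 to 27653363, plus strand), had 4, 359 and 57 counts where tau had 50, 372 and 70. Genes nested in tau held 85.4% as many counts as tau in libraries labelled brat-KD Spt5-KD and 31.7% in brat-KD libraries, against 0.632% in controls. With these subtracted, tau had 10.4, 2.87 and 6.28 CPM in libraries labelled brat-KD Spt5-KD, against 3.66, 3.79, 2.67 and 6.19 CPM in brat-KD libraries, which overlap (log2 fold change 0.72, edgeR adjusted p = 0.61). The lower level of tau in brat-KD than in control libraries kept its call under the same subtraction (log2 fold change -2.49, edgeR adjusted p = 0.0024). The call of tau between the knockdown genotypes was also lost without any 1 of the brat-KD libraries (2.72 to 3.19) or without replicate 2 (1.99) or 3 (3.01) labelled brat-KD Spt5-KD.

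**Figure D4:**
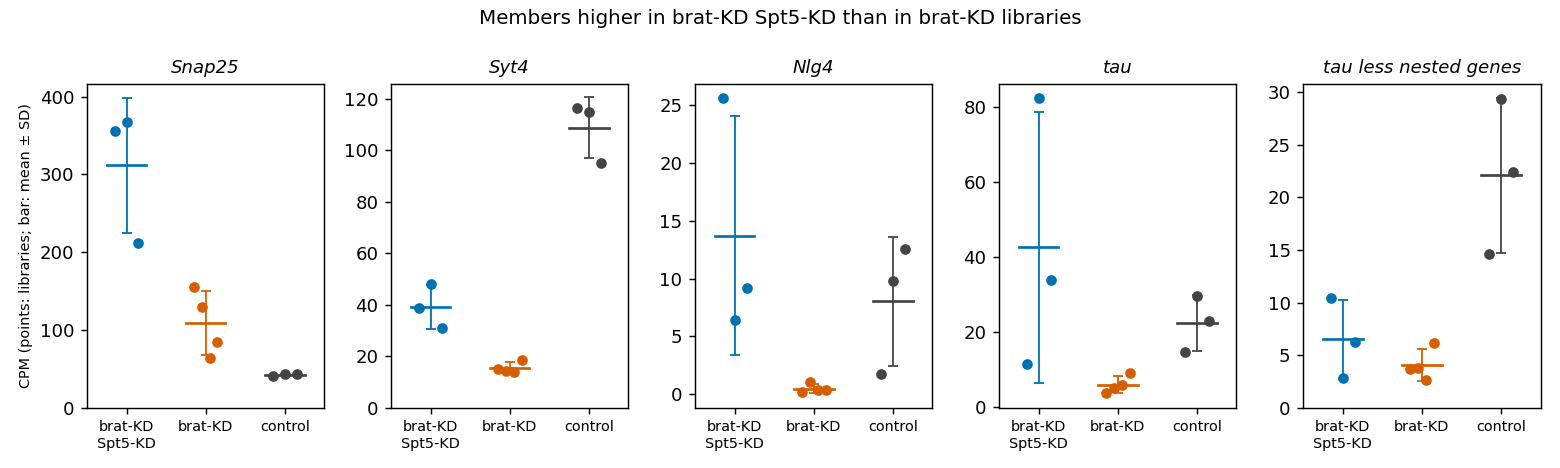
CPM (vertical axes) of Snap25, Syt4, Nlg4 and tau in each library, and of tau after the counts of genes nested in it were subtracted. Points are libraries, and bars are means ± SD with n = 3, 4 and 3. Libraries labelled brat-KD Spt5-KD lie above brat-KD libraries in the first 4 panels and overlap them in the last, in which controls are highest at 14.6 to 29.3 CPM.

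The genes that mark early neurons did not pass in this comparison. elav had 117, 64.7 and 82.6 CPM in libraries labelled brat-KD Spt5-KD, against 83.4 to 123 CPM in brat-KD libraries, and fne had 71.7, 142 and 75.8 CPM, against 68.9 to 120.5 CPM. Rop, Syt1, unc-13, Liprin-alpha, shi and dlg1 were not called although their libraries did not overlap, at log2 fold changes of 0.81, 1.03, -0.68, -0.82, -0.48 and -0.78. Libraries did not overlap for 6 of the 33 genes in the higher and 4 in the lower direction, against 29.4% of all genes tested (11.3% higher and 18.1% lower). Without replicate 1 labelled brat-KD Spt5-KD, edgeR also called Rop (1.03) and Nrx-1 (0.97) higher and unc-13 (-1.06) and dlg1 (-1.02) lower.

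Libraries labelled brat-KD Spt5-KD varied more among themselves than the other genotypes. The median SD of the 34 genes on the log2(CPM + 1) scale was 0.87 in libraries labelled brat-KD Spt5-KD and 0.39 in brat-KD libraries, against 0.33 in controls, and the highest library exceeded the lowest more than 3-fold for 18, 10 and 5 genes in the same order. nSyb had 42.8 CPM in replicate 1 labelled brat-KD Spt5-KD but 4.20 and 2.42 CPM in the other 2, futsch had 84.1 CPM against 28.7 and 8.70 CPM, and nwk 112 CPM against 1.32 and 22.2 CPM. For other genes this library was the low one: brp had 2.26 CPM against 18.1 and 3.86 CPM, Rbp 0 CPM against 7.95 and 7.73 CPM, and Nrx-1 6.79 CPM against 40.4 and 54.6 CPM. Replicate 1 was the highest of its genotype for 13 of the 34 genes and the lowest for 16.

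Of 24 other synaptic genes tested in this comparison, 2 were called higher and 2 lower (16.7% together, against 11.6% of all 8750 genes tested). The higher ones were hiw, an E3 ligase that limits synaptic growth (log2 fold change 1.06, SE 0.23), and Vha100-1, a subunit of the vesicular proton pump (0.86, SE 0.19). The lower ones were Appl, the fly relative of the amyloid precursor protein (-1.41, SE 0.29), and Eps-15, an endocytic adaptor (-1.10, SE 0.20). Their edgeR adjusted p were 0.021, 0.021, 0.017 and 0.012 in this order. pros was lower still than in brat-KD libraries, at 310, 304 and 338 CPM in libraries labelled brat-KD Spt5-KD, against 518 to 605 CPM in brat-KD libraries (log2 fold change -0.78, SE 0.15, edgeR adjusted p = 0.014). Genes of transmitter identity summed to 15.4 to 21.0 CPM in libraries labelled brat-KD Spt5-KD, against 28.5 to 44.1 CPM in brat-KD libraries, but ChAT, which had the smallest adjusted p of the 5, was not called (edgeR adjusted p = 0.28).

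Some markers of cells outside NB II lineages differed in these libraries. Hemocyte markers summed to 87.9 to 108 CPM in libraries labelled brat-KD Spt5-KD, against 1.73 to 5.12 CPM in brat-KD and 33.0 to 91.3 CPM in control libraries, and 2 of the 4 that were tested, of 7 in the list, passed against brat-KD libraries (Hml and Col4a1, both higher). The list did not move as 1: Col4a1 had 68.1 to 77.6 CPM and Hml 6.28 to 15.4 CPM in libraries labelled brat-KD Spt5-KD, against 0 to 4.83 and 0 CPM in controls, and both were higher there too (edgeR adjusted p = 0.034 and 0.037). Pxn made up most of the control sum, with 0, 5.30 and 7.25 CPM in libraries labelled brat-KD Spt5-KD, against 32.7, 86.8 and 77.2 CPM in controls (edgeR adjusted p = 0.081). The defining markers NimC1 and He were at 0 in all 10 libraries. Of 6 muscle markers, 1 was tested and was higher (up). List sums were 8.82 to 80.2 CPM in libraries labelled brat-KD Spt5-KD, against 1.47 to 5.52 CPM in brat-KD and 5.29 to 17.0 CPM in control libraries. Of the 80.2 CPM in replicate 3, up held 66.7 CPM, and TpnC73F was at 0 in both knockdown genotypes. Fat body markers summed to 13.5 to 25.3 CPM, against 0 to 2.80 CPM in brat-KD and 0 to 46.5 CPM in control libraries, and none was called. Photoreceptor markers overlapped brat-KD libraries, at 54.1 to 65.2 CPM against 47.9 to 152 CPM, and none of 4 tested was called. INP markers summed to 71.8 to 473 CPM in libraries labelled brat-KD Spt5-KD, against 68.6 to 144 CPM in brat-KD libraries. None of the 5 was called (4 log2 fold changes positive and 1 negative), and ham alone had 286, 5.08 and 113 CPM in libraries labelled brat-KD Spt5-KD. Of 6 NB II markers, 4 were lower, with sums of 1625 to 2209 CPM, against 3424 to 3784 CPM in brat-KD libraries. The part of these cells in the changes of Snap25, Syt4, Nlg4 and tau was not tested.

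In the last comparison the controls were set beside libraries labelled brat-KD Spt5-KD. Of the 34 genes, 5 passed the test (14.7%, against 7.29% of all 8506 genes tested): Snap25 was higher, and elav, fne, cpx and Syt4 were lower (of all genes tested, 3.32% were lower and 3.97% higher). The median log2 fold change was -0.72, against -0.01 over all genes tested. At an unadjusted p under 0.05, 11 genes were lower and 1 higher, and DESeq2 called 8 lower and 1 higher. The shares of all genes given above are for the adjusted edgeR p and do not apply to these counts. Without replicate 1 labelled brat-KD Spt5-KD the count of calls was 11, and it was 3 when any 1 of the other 5 libraries was left out. Without both libraries that stood apart, replicate 1 of each genotype, it was 19.

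elav was 4.36-fold lower in libraries labelled brat-KD Spt5-KD (88.2 ± 26.7 CPM) than in controls (390 ± 68.0 CPM, SD, n = 3 each), with a log2 fold change of -2.13 (SE 0.28, edgeR adjusted p = 0.0076). fne was 6.95-fold lower (96.4 ± 39.3 CPM, against 680 ± 162 CPM), with a log2 fold change of -2.80 (SE 0.33, edgeR adjusted p = 0.0059). cpx had 15.2, 3.76 and 5.80 CPM in libraries labelled brat-KD Spt5-KD, against 52.2, 82.4 and 88.7 CPM in controls (log2 fold change -3.13, SE 0.60, edgeR adjusted p = 0.025). Syt4 had 30.9 to 47.9 CPM in libraries labelled brat-KD Spt5-KD, against 95.2 to 116 CPM in controls (log2 fold change -1.45, SE 0.27, edgeR adjusted p = 0.024). Snap25 was 7.48-fold higher (312 ± 86.8 CPM, against 42.2 ± 1.17 CPM), with a log2 fold change of 2.90 (SE 0.27, edgeR adjusted p = 0.0032). The calls of elav, fne and Snap25 were made without each library in turn, whereas those of cpx (log2 fold changes -3.40 to -2.77) and Syt4 (-1.62 to -1.38) were each lost without any 1 library other than replicate 1 labelled brat-KD Spt5-KD.

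Many of the remaining genes were low in libraries labelled brat-KD Spt5-KD without passing the test. Libraries did not overlap for 16 of the 34 genes in the lower direction and 2 in the higher direction, against 18.9% and 15.2%, and 34.1% in either direction, of all genes tested. Syn had 1.36, 3.09 and 2.42 CPM in libraries labelled brat-KD Spt5-KD, against 22.1, 19.2 and 19.1 CPM in controls (log2 fold change -3.11, edgeR adjusted p = 0.057). stnB had 1.58, 13.2 and 9.18 CPM, against 58.9, 61.6 and 49.4 CPM in controls (-2.81, edgeR adjusted p = 0.061). Syt1 had 11.99, 9.50 and 22.7 CPM, against 37.5 to 56.8 CPM in controls (-1.68, edgeR adjusted p = 0.091). None of these 3 passed the test. futsch, Nlg2 and Nlg4, which were lower in brat-KD libraries, overlapped the controls here: futsch had 84.1, 28.7 and 8.70 CPM in libraries labelled brat-KD Spt5-KD, against 25.4 to 41.9 CPM in controls, and Nlg4 had 6.41 to 25.6 CPM, against 1.79 to 12.5 CPM. tau overlapped the controls as counted (log2 fold change 0.94, edgeR adjusted p = 0.53), but with nested counts subtracted it had 2.87 to 10.4 CPM in libraries labelled brat-KD Spt5-KD, against 14.6 to 29.3 CPM in controls, without overlap and with the sign turned (-1.73, edgeR adjusted p = 0.23).

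Of 25 other synaptic genes tested, 3 were called against the controls (12%), each lower. Of all genes tested, 3.32% were lower and 7.29% were called in either direction. The 3 were Appl (26.2 ± 7.60 CPM in libraries labelled brat-KD Spt5-KD and 268 ± 73.3 CPM in controls, log2 fold change -3.32), Ank2 (-2.89) and Cadps (-1.88), with edgeR adjusted p of 0.0032, 0.0032 and 0.018. VAChT (-3.45, SE 0.82) and ChAT (-3.32, SE 0.42) were lower among 5 genes of transmitter identity (edgeR adjusted p = 0.045 and 0.0071), and pros (-2.77, SE 0.22) and onecut (-2.25, SE 0.39) among 4 fate factors (edgeR adjusted p = 0.0032 and 0.02). Sums of the fate factors were 465 to 550 CPM in libraries labelled brat-KD Spt5-KD, against 2304 to 3196 CPM in controls. Of these sums, pros held 304 to 338 CPM and 1745 to 2539 CPM in the same order. The fate factors nerfin-1 (-2.015, SE 0.52, edgeR adjusted p = 0.06) and scrt (-0.62, SE 0.47, edgeR adjusted p = 0.53) were not called. Because the comparisons share libraries, their calls are not independent of each other.

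By position, the 34 genes are long. The median annotated span was 27797 bases for the 17 genes lower in brat-KD than in control libraries and 11732 bases for the 16 that were not called, against 2914.5 bases for all genes tested in that comparison. Other annotated genes or transposable elements overlap 25 of the 34 (73.5%), against 59.7% of genes tested. Of the 9 that overlap none (nSyb, Rop, comt, Syt4, brp, Liprin-alpha, EndoA, Synj and dlg1), nSyb, Rop, Syt4 and brp were lower in brat-KD than in control libraries, and Syt4 was higher in libraries labelled brat-KD Spt5-KD than in brat-KD libraries.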

How the data were processed

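RNA of sorted GFP-positive cells was poly(A)-selected, made into directional libraries with 17 or 24 PCR cycles (which library had which is not given in the sources used here) and sequenced. The authors mapped reads with bowtie2 to BDGP6 and deposited raw counts of reads per gene; the counting program and its annotation are not given in the sources used here. All 34 symbols were matched to gene identifiers, and coordinates and overlaps were read from Ensembl annotation BDGP6.54 (release 115), which held 17549 of 17676 genes.

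Each pair of genotypes was fitted separately in R 4.3.3 with edgeR 4.0.16 (TMM, filterByExpr, quasi-likelihood test), with Benjamini-Hochberg adjustment over all genes tested and a threshold of 0.05. SEs came from the same fits, and SDs are over libraries. The procedure was tested on simulated data. Alternatives were DESeq2 1.42.0, its size factors, total counts, a filter of at least 10 counts in each library or none, 1 fit of all 3 genotypes, a replicate block, each library left out, and members that overlap no other gene or transposable element. Subtraction of counts of nested genes was added after the data were seen. Named genes were all 34 members, brat and Spt5, and, per comparison, up to 3 called genes of each other neuronal list by size of change; other genes were named after their values were seen. Members and lists were chosen with earlier results of these data known. Counting error is widest in the shallowest library (2158058 counts).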

Additional observations from a re-analysis of the deposited data

How the results depend on the processing

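In brat-KD against control libraries, 18 of 34 genes were called, and 12 (all 3 genotypes in 1 fit) to 21 over the settings that kept all genes; 13 to 21 without 1 library, 16 with the replicate block, and 4 among the 9 genes that overlap no other. Between libraries labelled brat-KD Spt5-KD and brat-KD libraries, the count of 4 became 0 with the replicate block, 0 to 8 without 1 library, 6 with DESeq2, 3 with nested genes subtracted, and 1 among the 9 genes. Between libraries labelled brat-KD Spt5-KD and controls, the count of 5 became 9 with DESeq2, 8 with all 3 genotypes in 1 fit, 3 with the replicate block, 3 to 11 without 1 library, 19 without replicate 1 of both genotypes, and 1 among the 9 genes. Deviations of same-numbered libraries from their genotype means had correlations of -0.02 to 0.14, against -0.16 to 0.14 for different numbers. Correlations exceeded 0.1 for 2 of 9 same-numbered pairs and 1 of 24 other pairs. No source used here states that equal numbers share a batch, so the block rests on a shared number only. Syt7 and Nlg2 lost their calls against control under the block in brat-KD libraries. Member fold changes that were called, or whose libraries did not overlap, kept their sign in all 722 alternative values. These were picked for a clear difference in the main fit. Of 52 other member fold changes, 32 changed sign somewhere and 6 were called somewhere. Among those that changed sign was tau in libraries labelled brat-KD Spt5-KD against controls. Over all genes, calls between libraries labelled brat-KD Spt5-KD and brat-KD libraries numbered 1017, and 1648 with DESeq2, 1 with the block and 334 to 2408 without 1 library; with controls as the other genotype they numbered 620, and 1347 with DESeq2, 1450 in 1 fit of all genotypes, 232 with the block, 64 to 1504 without 1 library and 2513 without replicate 1 of both. For brat-KD against control they numbered 2467, and 1250 in 1 fit.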

Other observations

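Outliers were looked for in the genotype with 4 libraries, brat-KD, by Dixon's criterion, for the 34 genes and their sum. No library exceeded the critical value in any of the 35 sets, where chance would flag about 1 in 20.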
